A study of Mus musculus with 8 samples.

Results

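Transcripts of the NF-kB pathway were followed in mouse epidermis with and without the clock factor BMAL1. The 40 genes considered are the 5 NF-kB subunits, their inhibitors and activating kinases, adaptors, receptors, ligands and further target genes. They were taken from a list of symbols, each of which matched 1 Ensembl identifier among the 34070 in the count table, and 36 of the 40 passed the filter on low counts that left 19646 genes for testing. RNA came from suspensions of epidermal cells of adult mice aged 18 to 25 weeks, collected at zeitgeber time 4, that is 4 h into the light phase. All libraries carried K14-Cre, a Cre recombinase driven by the keratin 14 promoter of basal keratinocytes. It was combined with Bmal1flox/flox in the 4 libraries named Bmal1cKO and with Bmal1wt/wt in the 4 named Bmal1WT. Deletion was therefore directed at keratinocytes, and other cells of the suspension were not its target.

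NF-kB factors are dimers of REL-homology proteins that are held in the cytoplasm by IkB proteins. In the canonical branch, receptors of the TNF, interleukin-1 and Toll-like families activate the IKK kinase complex, IkB is degraded, and dimers of RELA or REL with the Nfkb1 product enter the nucleus. In the non-canonical branch, the kinase NIK, which TRAF3 keeps low, drives processing of the Nfkb2 product and activity of RELB. Target genes include the pathway's own inhibitors, so that IkB alpha and A20 shut the response off again. In skin, mutations of NF-kB regulators such as CARD14 and A20 are linked to psoriasis-like inflammation, and RELB has been reported to bind BMAL1.

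The start regions of 4 selected genes, Nfkb2, Traf3, Tnfaip3 and Icam1, are printed to show letters that NF-kB dimers and clock factors can read. Each is the RefSeq window on GRCm38.p6 from 250 bases before to 50 bases after an annotated start, 300 bases in all, written 5′ to 3′ on the strand of the gene. The Nfkb2 window lies at chr19:46304487-46304786 on the plus strand, that of Traf3 at chr12:111166120-111166419 on the plus strand, that of Tnfaip3 at chr10:19015361-19015660 on the minus strand and that of Icam1 at chr9:21015690-21015989 on the plus strand. Capitals mark matches, on either strand, to the kappaB consensus of 10 letters or to the E-box CACGTG, the hexamer that CLOCK and BMAL1 can bind. The consensus was GGGRNWYYCC, where R is A or G, W is A or T, Y is C or T and N is any base. Overlapping kappaB matches were merged into 1 stretch.
Nfkb2: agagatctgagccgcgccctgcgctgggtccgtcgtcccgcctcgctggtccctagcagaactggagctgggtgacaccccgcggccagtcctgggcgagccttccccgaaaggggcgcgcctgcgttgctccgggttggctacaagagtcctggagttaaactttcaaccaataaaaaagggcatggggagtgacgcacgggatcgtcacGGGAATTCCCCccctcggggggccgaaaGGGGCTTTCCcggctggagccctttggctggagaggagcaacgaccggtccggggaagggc
Traf3: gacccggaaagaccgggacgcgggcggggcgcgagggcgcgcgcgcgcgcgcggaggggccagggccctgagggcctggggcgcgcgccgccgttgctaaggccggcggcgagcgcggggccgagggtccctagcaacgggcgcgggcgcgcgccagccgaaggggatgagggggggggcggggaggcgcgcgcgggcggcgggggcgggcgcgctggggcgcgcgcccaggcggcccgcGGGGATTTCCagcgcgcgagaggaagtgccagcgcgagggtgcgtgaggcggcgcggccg
Tnfaip3: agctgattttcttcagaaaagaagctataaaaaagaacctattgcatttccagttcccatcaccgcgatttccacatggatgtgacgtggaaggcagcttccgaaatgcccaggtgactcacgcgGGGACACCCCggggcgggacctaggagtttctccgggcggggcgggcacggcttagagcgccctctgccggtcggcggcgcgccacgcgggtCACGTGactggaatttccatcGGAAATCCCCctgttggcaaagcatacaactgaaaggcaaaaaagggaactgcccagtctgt
Icam1: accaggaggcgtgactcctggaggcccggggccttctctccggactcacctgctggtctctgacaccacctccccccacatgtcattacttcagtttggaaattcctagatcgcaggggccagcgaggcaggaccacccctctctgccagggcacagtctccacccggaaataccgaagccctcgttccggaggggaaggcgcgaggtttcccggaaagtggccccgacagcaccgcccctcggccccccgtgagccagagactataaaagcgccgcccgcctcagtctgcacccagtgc

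The Nfkb2 window held 2 kappaB stretches, which began 39 and 11 bases before the start, and that of Traf3 held 1, which began 10 bases before it. The Tnfaip3 window held 2, at 125 and 12 bases before the start, and an E-box between them. Both Nfkb2 and Tnfaip3 have windows at other annotated starts, which are not printed. Those of Nfkb2 held 2 and 1 kappaB stretches. These 2 windows overlap, and 1 stretch was counted in both. That of Tnfaip3 held no kappaB match and no E-box. The Icam1 window held no match to either pattern. Sites that depart from these patterns were not searched for, in this window or the others. RefSeq windows were matched for 32 of the 40 genes, and none was matched for Relb. Of the 32 genes, 12 (37.5%) held a kappaB match, against 5.14% of all 27025 genes with a window. The genes were listed as NF-kB pathway and target genes, so this higher share is no independent finding. The 12 were Nfkb2, Traf3, Tnfaip3, Nfkbia, Nfkbie, Bcl3, Rel, Tnip1, Tlr2, Tlr3, Ltb and Il6. An E-box was present for Tnfaip3 and Ptgs2, 2 of 32 (6.2%), against 8.09% of all genes. A match is a string of letters and was not measured as a bound site. For comparison among the inhibitor genes and Rel, the kappaB stretches with 5 bases on either side were as follows, with the stretch in capitals.
Nfkbia: ggcttGGAAATTCCCcgcgc
Nfkbie: aaacaGGGGGATTCCggagg
Bcl3: ggcagGGGAAGTCCCgctgc
Tnip1: tcatgGGGGAATTCCCCtcctg
Rel: gcagcGGGAAATCCCCccccc

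Libraries held 35685261 to 50396156 counts. The targeted gene Bmal1 (Arntl) had 42 to 49.1 CPM, in counts-per-million, in Bmal1WT libraries and 30.7 to 37.6 CPM in Bmal1cKO libraries, without overlap. Its log2 difference of -0.47 ± 0.08 (SE) missed the threshold by edgeR (adjusted p = 0.0611, 5.96e-05 to 0.693 over the alternatives), and these are counts over the whole gene, including exons that the deletion may leave. As a further check of the labels, Nr1d1, a direct BMAL1 target, had 98.5 to 134 CPM in Bmal1WT, and in Bmal1cKO it fell by 5.51 ± 0.17 (SE) on the log2 scale (edgeR adjusted p = 9.09e-07). The 12 keratinocyte markers summed to 39750 to 50520 CPM in Bmal1WT and 36750 to 44680 CPM in Bmal1cKO. Xist and Y-linked genes showed replicates 1 and 3 of both groups to be female and replicates 2 and 4 male. Summed CPM of markers of other cells overlapped between the groups. They ran over all 8 libraries from 229 to 644 CPM for Langerhans cells, 106 to 205 CPM for T cells, 7.26 to 12.5 CPM for macrophages and neutrophils, 19.6 to 45 CPM for melanocytes, 50.6 to 114 CPM for fibroblasts and 10.6 to 15.9 CPM for endothelial and mural cells. Some of these sums rested in good part on 1 gene. Sparc averaged 57.6 CPM in Bmal1WT and 84.3 CPM in Bmal1cKO, while the other 6 tested fibroblast markers had negative log2 fold changes. Thy1 averaged 48.35 and 70.3 CPM, while the other 9 T-cell markers had negative ones. Acta2 made up most of the endothelial and mural sum, and Epcam a large share of the Langerhans sum. None of these markers was called by edgeR between genotypes. In bulk RNA, fewer cells of a type and less RNA per cell cannot be told apart.

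No NF-kB gene passed the test between genotypes. With edgeR's quasi-likelihood F-test, 0 of 36 had an adjusted p under 0.05, where 0.173% of all genes tested did. The lowest p-values were those of Icam1, Relb, Nfkb2 and Traf3, each with a higher mean in Bmal1cKO. These 4 of 36 (11.1%) had an unadjusted p under 0.05, against 8.30% of all genes in either direction and 4.50% toward Bmal1cKO. By other tools, DESeq2 called 1 of 36, Icam1, where it called 1.28% of all genes, limma-voom called 0 (0.148% of all genes) and edgeR with the replicate number as a block called 0 (0.774% of all genes).

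The fitted log2 fold changes, Bmal1cKO over Bmal1WT, were small. They ran from -0.29 for Tnfrsf1b to 0.60 for Icam1, and 29 of 36 genes lay within 1.2-fold, a window chosen after the values were seen, as did 16217 of 19646 genes overall. Their median was 0.05, beside -0.01 over all genes, and 25 of 36 (69.4%) were above 0, against 47.0% of all genes. Leaving out 1 library at a time moved the median between 0.02, without Bmal1cKO replicate 3, and 0.11, without Bmal1cKO replicate 2. Levels of the groups did not overlap for 2 of 36 genes (5.56%), Icam1 and Relb, both higher in Bmal1cKO, and the background was 5.15% of all genes in either direction.

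**Figure D1:**
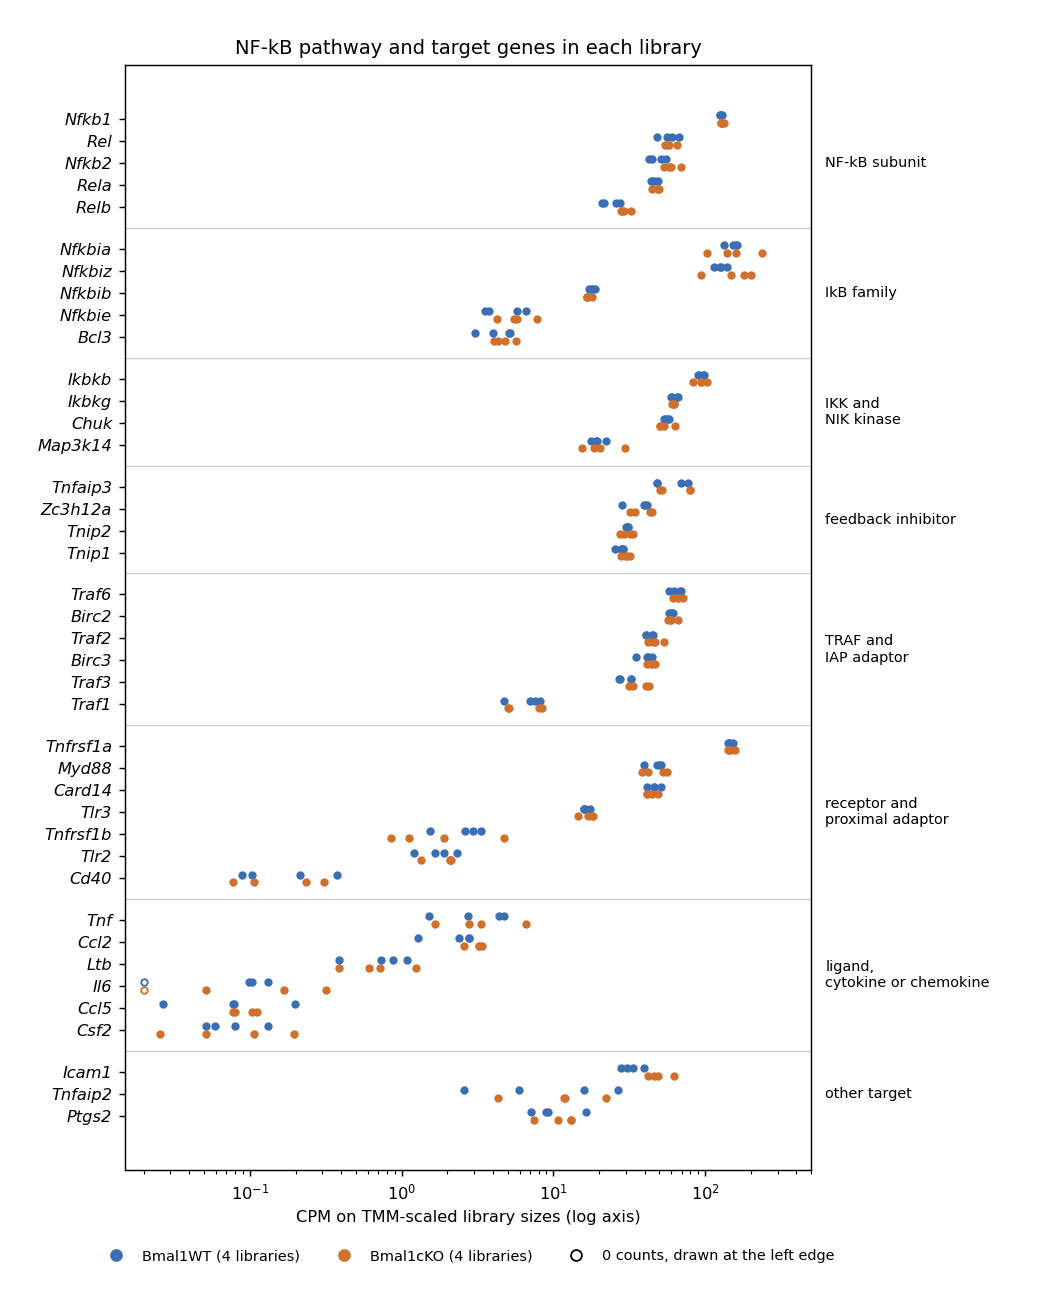
Level of each NF-kB gene in every library, in CPM on a log axis, grouped by role, with Bmal1WT and Bmal1cKO in different colours. Levels ran from Nfkbia, at a mean of 152 CPM in Bmal1WT, down to Csf2, at 0.0808 CPM, and the colours lay over each other for most genes.

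**Figure D2:**
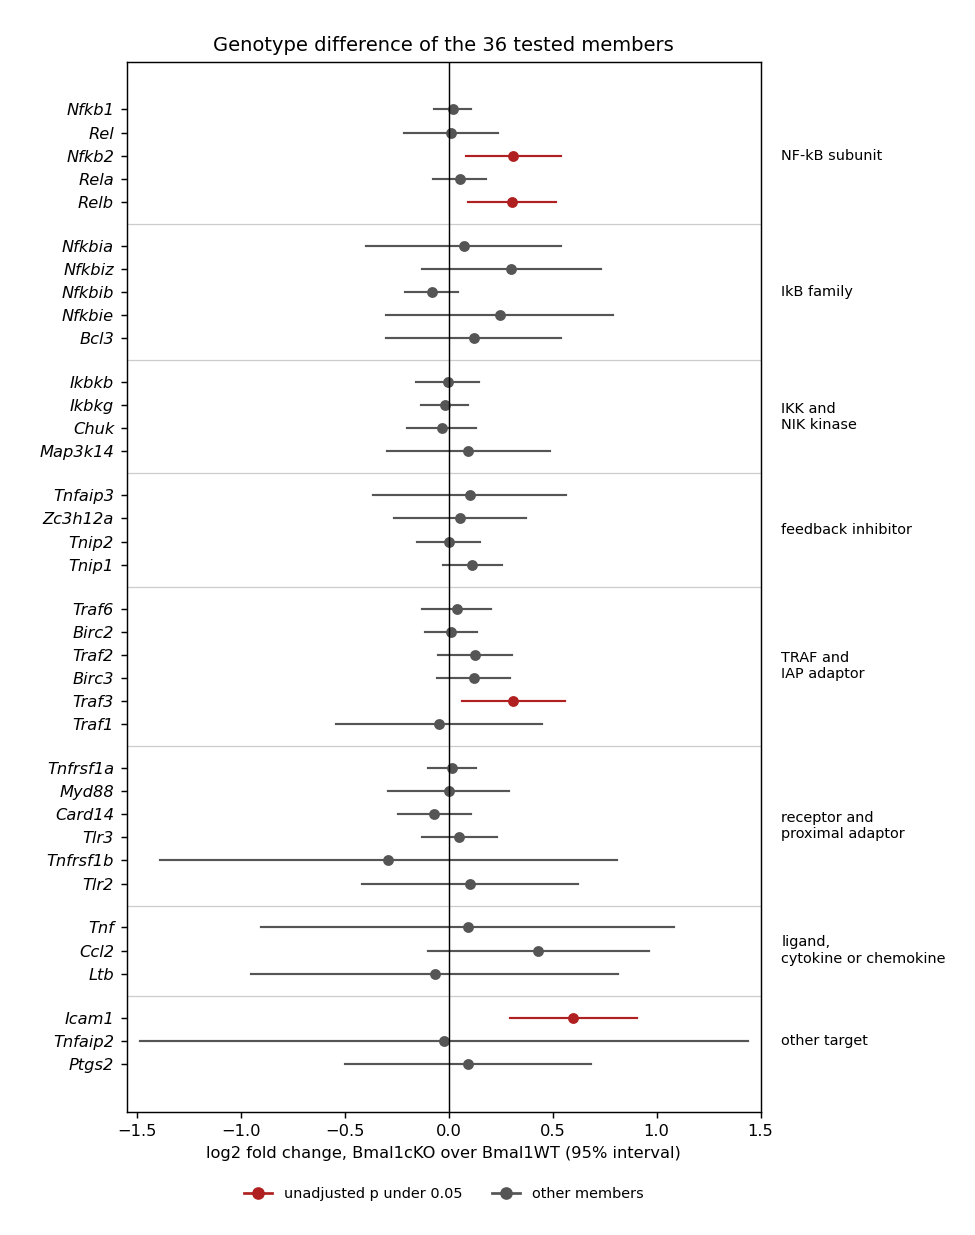
Fitted log2 fold change of each tested NF-kB gene, Bmal1cKO over Bmal1WT, with its 95% confidence interval. Icam1 stood highest at 0.60, followed by Ccl2 at 0.43, Nfkb2 and Traf3 at 0.31 and Relb and Nfkbiz at 0.30. Intervals left out 0 for Icam1, Nfkb2, Traf3 and Relb and included it for the other 32 genes.

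Among the subunits, the canonical genes had nearly the same level in both genotypes. Nfkb1, the precursor subunit of the canonical branch, had 128, 125, 129 and 126 CPM in Bmal1WT replicates 1 to 4 and 127, 129, 132 and 127 CPM in Bmal1cKO replicates 1 to 4. All 8 libraries lay close together and the groups overlapped. Its log2 fold change was 0.02 ± 0.04 (SE; 95% interval -0.07 to 0.11, edgeR adjusted p = 0.953). Rela, the main transactivating subunit, had 49.2, 46.7, 45.3 and 44.2 CPM in Bmal1WT and 48.8, 49.3, 49.6 and 44.5 CPM in Bmal1cKO, where replicate 4 was the low library. The log2 fold change of Rela was 0.05 ± 0.06 (SE, interval -0.07 to 0.18, edgeR adjusted p = 0.890). Rel, which encodes c-Rel, had 60.5, 56, 67.2 and 48.1 CPM in Bmal1WT and 54.1, 56.6, 65.1 and 57.7 CPM in Bmal1cKO, again with overlap, and its log2 fold change was 0.01 ± 0.10 (SE, interval -0.21 to 0.24, edgeR adjusted p = 0.994). These intervals leave out changes of 1.2-fold in either direction for Nfkb1, Rela and Rel.

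Relb, the subunit of the non-canonical branch (chromosome 7, 19606217 to 19629438, minus strand, GRCm38) had 27.3, 21.5, 25.8 and 21 CPM in Bmal1WT replicates 1 to 4 and 28, 29, 32.3 and 28.5 CPM in Bmal1cKO replicates 1 to 4. Every Bmal1cKO library lay above every Bmal1WT library, by a narrow margin over Bmal1WT replicate 1. The means were 23.9 ± 3.11 and 29.5 ± 1.95 CPM (SD, n = 4), with a log2 fold change of 0.30 ± 0.09 (SE) that missed the threshold after adjustment (edgeR adjusted p = 0.404, 0.0804 to 0.853 over the alternatives).

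Nfkb2 (chromosome 19, 46304320 to 46312385, plus strand), whose product is the partner of RELB, had 54.8, 42.6, 51.5 and 44.7 CPM in Bmal1WT and 53.8, 57.4, 69.7 and 59.4 CPM in Bmal1cKO. The groups overlapped through Bmal1WT replicate 1 and Bmal1cKO replicate 1, both female, and Bmal1cKO replicate 3 was the highest. The means were 48.4 ± 5.72 and 60.1 ± 6.83 CPM (SD, n = 4). The fitted difference was 0.31 ± 0.10 on the log2 scale (SE), at an edgeR adjusted p of 0.427 and 0.0767 to 0.867 over the alternatives. Nfkb2 shares exon bases with the antisense genes AC114539.1 and Psd, which held 1382 and 292 counts over the 8 libraries beside 17364 for Nfkb2. Of the 5 subunits, 2 thus had an unadjusted p under 0.05, against 8.30% of all genes. All 5 had a log2 fold change above 0, against 47.0% of all genes. So few genes allow no statement about subunits as a class. Per kb of exon, Rela had the highest level in Bmal1WT at 15.1 CPM per kb, Nfkb2 and Nfkb1 followed at 10.6 and 10.5 CPM per kb, and Rel and Relb were at 7.76 and 6.15 CPM per kb.

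The IkB family, which holds NF-kB in the cytoplasm or modulates it in the nucleus, held no gene that passed the test, and its more abundant members varied widely between the Bmal1cKO libraries. Nfkbia, which encodes IkB alpha and is itself an NF-kB target, had 133, 152, 160.1 and 163 CPM in Bmal1WT and 103, 159, 140.3 and 236 CPM in Bmal1cKO. The lowest and the highest of all 8 libraries were both Bmal1cKO, replicates 1 and 4. The coefficient of variation was 8.83% in Bmal1WT and 35.2% in Bmal1cKO, and the log2 fold change was 0.07 ± 0.21 (SE, interval -0.40 to 0.54, edgeR adjusted p = 0.971). Nfkbiz, the nuclear IkB zeta that keratinocytes use in interleukin-17 responses, behaved alike, with 114, 139, 127 and 125 CPM in Bmal1WT and 94.3, 180.5, 148 and 199.7 CPM in Bmal1cKO. Its groups overlapped, and the means were 126 ± 10.3 and 156 ± 46.1 CPM (SD, n = 4). The other members were lower. Nfkbib, for IkB beta, averaged 18.0 and 17 CPM in Bmal1WT and Bmal1cKO, Nfkbie, for IkB epsilon, 4.9 and 5.81 CPM, and Bcl3, a nuclear coactivator of the family, 4.33 and 4.71 CPM. None of the 5 had an unadjusted p under 0.05, and their log2 fold changes ran from -0.08 to 0.30.

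The kinases that activate the pathway were nearly level. Ikbkb, the catalytic IKK beta, averaged 93.9 CPM in Bmal1WT and 93.6 CPM in Bmal1cKO. Chuk, for IKK alpha, averaged 55.7 and 54.4 CPM, and Ikbkg, for the scaffold NEMO, 63 and 62.1 CPM. Map3k14, which encodes NIK of the non-canonical branch, averaged 19.6 ± 1.97 and 20.9 ± 6.04 CPM (SD, n = 4), with Bmal1cKO replicate 3 highest at 29.5 CPM. The 4 log2 fold changes ran from -0.03 to 0.09 with a median of -0.01. Ikbkg overlaps G6pdx on the opposite strand, which held 14878 counts beside its 20147. In all, 8 of the 40 genes share exon bases with another counted gene, and the strand setting of the counting is not given in the sources used here.

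No feedback inhibitor passed the test. Tnfaip3, which encodes the ubiquitin-editing enzyme A20, had 69.4, 48.2, 77.6 and 48.5 CPM in Bmal1WT and 51.8, 50.2, 79.9 and 79.3 CPM in Bmal1cKO. In Bmal1WT the female libraries were the higher ones, while in Bmal1cKO replicates 3 and 4 were high and 1 and 2 low, and the groups overlapped throughout. The log2 fold change of Tnfaip3 was 0.10 ± 0.21 (SE, interval -0.36 to 0.56, edgeR adjusted p = 0.953). The A20-binding partners Tnip1 and Tnip2 averaged 27.9 and 30.6 CPM in Bmal1WT and 30.2 and 30.6 CPM in Bmal1cKO. Zc3h12a, which encodes the mRNA-cleaving enzyme Regnase, averaged 37.3 and 38.7 CPM. The 4 log2 fold changes in this class lay between -0.001 and 0.11.

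Of the 6 TRAF and IAP adaptors, none passed the test. Traf3 (chromosome 12, 111166370 to 111267153, plus strand), whose product holds NIK down, had 32.7, 27.6, 32.6 and 27.2 CPM in Bmal1WT replicates 1 to 4 and 31.7, 33.7, 42.9 and 40.6 CPM in Bmal1cKO replicates 1 to 4. Bmal1cKO replicate 1 lay within the Bmal1WT range and the other 3 above it. The means were 30 ± 3.04 and 37.2 ± 5.36 CPM (SD, n = 4), and the fitted difference was 0.31 ± 0.11 on the log2 scale (SE), at an edgeR adjusted p of 0.466 and 0.152 to 0.890 over the alternatives. Traf2, which links TNF receptors to the IAP ligases, averaged 42.9 and 46.9 CPM in Bmal1WT and Bmal1cKO. Traf6, the adaptor of Toll-like and interleukin-1 receptors, averaged 64.6 and 66.3 CPM, and Traf1, an inducible TRAF, 6.85 and 6.63 CPM. The ubiquitin ligases Birc2 and Birc3, for cIAP1 and cIAP2, averaged 60 and 40.8 CPM in Bmal1WT and 60.4 and 44.2 CPM in Bmal1cKO. Of the 6 adaptors 5 had a log2 fold change above 0 (47.0% of all genes did), and 1, Traf3, had an unadjusted p under 0.05 (8.30% of all genes).

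Receptors and the adaptors next to them ranged widely in level, and none passed the test between genotypes. Tnfrsf1a, the widely expressed TNF receptor, averaged 146 CPM in Bmal1WT and 147 CPM in Bmal1cKO, whereas Tnfrsf1b, the TNF receptor of immune cells, averaged 2.62 ± 0.777 and 2.15 ± 1.77 CPM (SD, n = 4). Myd88, the adaptor of Toll-like receptors, averaged 47.5 and 47.4 CPM, and Card14, the keratinocyte scaffold of the pathway, 46.3 and 44.1 CPM. Both overlap another gene on the opposite strand. Tlr3, which senses double-stranded RNA, averaged 16.3 and 16.8 CPM, and Tlr2, which senses bacterial lipoproteins, 1.78 and 1.91 CPM. Cd40, a receptor of antigen-presenting cells, was below the filter with 4 to 19 counts in Bmal1WT libraries and 3 to 11 counts in Bmal1cKO libraries. None of the 6 tested genes had an unadjusted p under 0.05.

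Ligands and chemokines were scarce. Tnf had 4.39, 1.51, 4.75 and 2.74 CPM in Bmal1WT replicates 1 to 4 and 3.34, 1.65, 6.57 and 2.77 CPM in Bmal1cKO replicates 1 to 4, with the female libraries above the male ones in both. Ltb, for lymphotoxin beta, averaged 0.77 and 0.739 CPM. Ccl2, which attracts monocytes, averaged 2.31 ± 0.711 and 3.11 ± 0.372 CPM (SD, n = 4), with overlap. Counts of the myeloid growth factor Csf2 were 2 to 6 in Bmal1WT libraries and 1 to 7 in Bmal1cKO libraries, and those of the T-cell chemokine Ccl5 were 1 to 9 and 3 to 4. Il6 had 0 to 6 counts in Bmal1WT and 0 to 12 counts in Bmal1cKO. It was at 0 in replicate 1 of both groups, which allows up to 0.0825 and 0.0788 CPM at 3 counts. Csf2, Ccl5 and Il6 did not enter the test, and a difference in them was not detectable at this depth.

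Icam1 had the largest fold change of the 36 genes tested. It encodes an adhesion molecule through which leukocytes bind keratinocytes and endothelium, and lies on chromosome 9, 21015985 to 21028817, plus strand. It had 33.7, 27.9, 39.7 and 30.5 CPM in Bmal1WT replicates 1 to 4 and 42.4, 49, 46.1 and 62.2 CPM in Bmal1cKO replicates 1 to 4. The 4 Bmal1cKO libraries all lay above the 4 Bmal1WT libraries, and replicate 4, a male, was the highest. The means were 32.9 ± 5.08 and 49.9 ± 8.64 CPM (SD, n = 4), a 1.51-fold difference (95% interval 1.22 to 1.87) or 0.60 ± 0.14 (SE) on the log2 scale. By edgeR, Icam1 missed the threshold (adjusted p = 0.189), and over the alternatives the adjusted p lay between 0.0035 (DESeq2) and 0.839 (female libraries).

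In the 4 male libraries alone the log2 fold change of Icam1 was 0.94 (edgeR adjusted p = 0.0382), and in the 4 female libraries alone it was 0.27. The same values were 0.44 and 0.19 for Relb, 0.43 and 0.22 for Nfkb2, and 0.45 and 0.20 for Traf3. A test of the difference itself, chosen after these values were seen, did not separate the sexes. The male effect of Icam1 exceeded the female one by 0.66 ± 0.18 on the log2 scale (SE, edgeR interaction adjusted p = 0.723). Of the 36 genes, 0 passed this interaction test (0.00509% of all genes did) and 1, Icam1, had an unadjusted interaction p under 0.05 (6.64% of all genes).

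For the other targets the groups overlapped. Tnfaip2, an inducible gene of myeloid and epithelial cells, averaged 12.7 ± 10.8 and 12.6 ± 7.35 CPM (SD, n = 4), and Ptgs2, the inducible cyclooxygenase, 10.4 ± 4.1 and 11.1 ± 2.66 CPM.

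**Figure D3:**
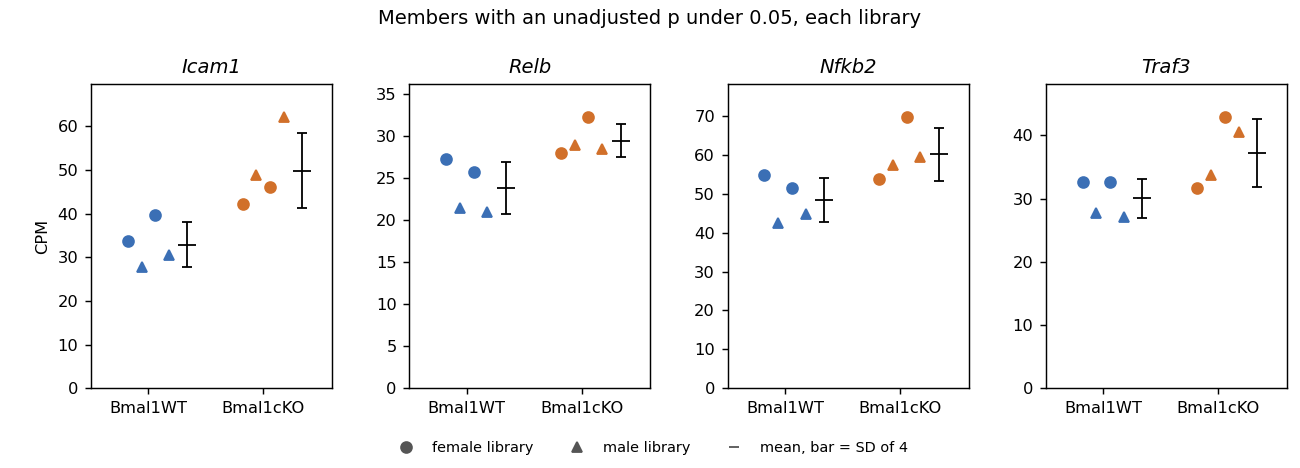
CPM of Icam1, Relb, Nfkb2 and Traf3 in every library, with circles for female and triangles for male libraries and the mean ± SD of 4 beside them. Bmal1cKO lay wholly above Bmal1WT for Icam1 and Relb, and the groups overlapped for Nfkb2 and Traf3.

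No member passed a test of sex either, although levels of a few lay apart. Tnfaip2 had 15.8, 2.59, 26.5 and 5.98 CPM in Bmal1WT replicates 1 to 4 and 12, 4.33, 22.2 and 11.8 CPM in Bmal1cKO replicates 1 to 4. The female libraries, replicates 1 and 3, lay at 12 to 26.5 CPM and the male ones at 2.59 to 11.8 CPM, without overlap. Traf1 ran from 7.51 to 8.4 CPM in female and from 4.69 to 7.06 CPM in male libraries, and Tnf from 3.34 to 6.57 and from 1.51 to 2.77 CPM. Traf6 was also wholly higher in females (66.3 to 72 against 57.8 to 65.8 CPM), and Bcl3 wholly higher in males (4.82 to 5.67 against 3.03 to 4.29 CPM). In all, the sexes did not overlap for 5 of 36 genes, a somewhat larger share than the 9.83% of all genes. With sex as a term in edgeR, 0 of 36 were called, where 1.84% of all genes were. An unadjusted p under 0.05 was found for 11 of 36, a larger share than the 17.9% of all genes. The male over female log2 fold change was -1.13 ± 0.27 (SE, edgeR adjusted p = 0.0736) for Tnf, -1.68 ± 0.42 (0.0848) for Tnfaip2 and -0.55 ± 0.13 (0.0816) for Traf1.

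Markers of Langerhans cells, the antigen-presenting cells of the epidermis, differed with sex. The 10 Langerhans markers summed to 543 to 644 CPM in female and to 229 to 419.5 CPM in male libraries, and 7 of them were called higher in females by the sex term. Sex is the same in both libraries of a replicate number. The numbers were taken to pair the libraries, though pairing and shared sex cannot be told apart. If they do pair them, this term rests on 2 female and 2 male pairs. Its p-values, those of the NF-kB genes included, were set over 4 against 4 libraries and would then be too small. Between genotypes, 0 of the 10 were called by edgeR and 0 had an unadjusted p under 0.05. Their part in the levels of Tnf, Tnfaip2 and Traf1 was not tested.

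A different order of libraries was seen for Nfkbia and Nfkbiz. The 22 immediate-early and stress genes, which respond quickly when tissue is dissociated, summed to 10750, 12290, 15760 and 16250 CPM in Bmal1WT replicates 1 to 4 and to 9913, 16840, 16860 and 21450 CPM in Bmal1cKO replicates 1 to 4. The lowest and the highest sums were in Bmal1cKO replicates 1 and 4, as were the lowest and highest Nfkbia and Nfkbiz. Icam1 was also highest in Bmal1cKO replicate 4, and it was lowest in Bmal1WT replicate 2, at 27.9 CPM. Between genotypes, 0 of the 22 were called by edgeR and 0 had an unadjusted p under 0.05. The part of these genes' variation in the NF-kB values was not tested.

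**Figure D4:**
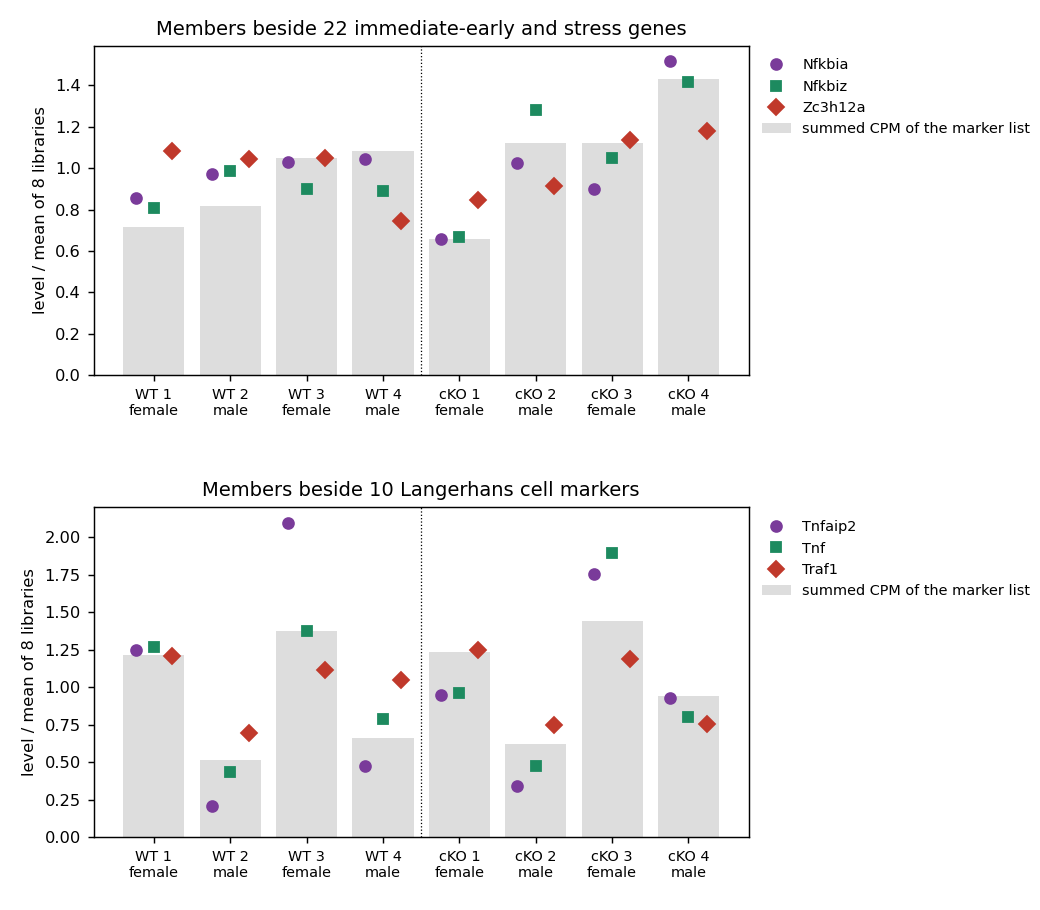
Levels in each library divided by the mean of the 8 libraries. Above, Nfkbia, Nfkbiz and Zc3h12a over grey bars for the summed immediate-early and stress genes; below, Tnfaip2, Tnf and Traf1 over bars for the summed Langerhans markers. Nfkbia and Nfkbiz were lowest in Bmal1cKO replicate 1 and highest in replicate 4. Zc3h12a was also highest in Bmal1cKO replicate 4 but lowest in Bmal1WT replicate 4, where the Bmal1WT sum was highest. Tnfaip2 and Tnf were higher in the female libraries of both groups.

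The rest of the pathway was examined through 79 further genes, 50 of signalling and 30 targets, with Ripk2 in both. Of the 72 tested, 0 were called by edgeR, 13 had an unadjusted p under 0.05 (18.1%, against 8.30% of all genes), 7 higher and 6 lower in Bmal1cKO, and 9 did not overlap between the groups (12.5%, against 5.15%). DESeq2 called 5 (Irak2, Otulin, Nod2, Peli3 and Ccl20), against 1.28% of all genes, limma-voom 0 (0.148%), and edgeR with the replicate block 1, Ccl20 (0.774%). The median log2 fold change was 0.02. These genes were chosen with earlier results of these data known, so their shares beside those of all genes are description only.

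The 6 genes with an unadjusted p under 0.05 and a lower mean in Bmal1cKO were Irak2, Peli3, Peli1, Tank, Irak3 and Csf1, and none passed the adjusted threshold. The kinase-like adaptor Irak2 averaged 23.3 ± 1.52 CPM in Bmal1WT against 17.9 ± 1.11 CPM in Bmal1cKO (SD, n = 4), without overlap. Its fitted log2 difference was -0.38 ± 0.07 (SE), at an edgeR adjusted p of 0.0974 and 0.00174 to 0.544 over the alternatives. The Pellino ubiquitin ligases Peli3 and Peli1, which act on IRAK proteins, averaged 11.7 and 51.8 CPM in Bmal1WT and 9.25 and 45 CPM in Bmal1cKO. Their log2 differences were -0.34 ± 0.08 and -0.20 ± 0.07 (SE, edgeR adjusted p = 0.197 and 0.423). Tank, a TRAF-binding inhibitor, averaged 39.4 and 33.7 CPM, also without overlap (log2 difference -0.23 ± 0.06, edgeR adjusted p = 0.305). Irak3, an inhibitor of IRAK signalling, averaged 15.3 and 13.3 CPM (-0.20 ± 0.08, edgeR adjusted p = 0.526), and the growth factor Csf1 42.6 and 34.7 CPM (-0.29 ± 0.10, edgeR adjusted p = 0.453).

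The 7 with a higher mean in Bmal1cKO were Nod2, Ripk2, Otulin, Ltbr, Tapbp, Psmb9 and Ccl20, and none of them passed either. Nod2, a sensor of bacterial cell walls, averaged 15.9 ± 1.83 and 22.2 ± 3.07 CPM (SD, n = 4), and its fitted log2 difference was 0.48 ± 0.12 (SE), at an edgeR adjusted p of 0.232 and 0.0172 to 0.502 over the alternatives. Ripk2, the kinase that acts with it, averaged 27.1 and 32.1 CPM (0.24 ± 0.07, edgeR adjusted p = 0.295). Otulin, which removes linear ubiquitin chains, averaged 23.5 ± 1.7 and 29.4 ± 0.658 CPM (SD, n = 4), without overlap (0.32 ± 0.06, edgeR adjusted p = 0.117, 0.00245 to 0.781 over the alternatives). Ltbr, the lymphotoxin beta receptor, averaged 43.7 and 48.5 CPM (0.15 ± 0.06, edgeR adjusted p = 0.543). The antigen-presentation genes Tapbp and Psmb9 averaged 102 and 40.3 CPM in Bmal1WT and 112 and 47.7 CPM in Bmal1cKO, with log2 differences of 0.13 ± 0.05 and 0.24 ± 0.10 (SE, edgeR adjusted p = 0.549 and 0.588).

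The chemokine Ccl20, which attracts CCR6-bearing T cells and dendritic cells, had the largest positive log2 fold change of the 72. Its mean was 1.02 ± 0.466 CPM in Bmal1WT against 2.66 ± 0.415 CPM in Bmal1cKO (SD, n = 4), without overlap, and the log2 difference was 1.36 ± 0.28 (SE). It missed the threshold by edgeR (adjusted p = 0.141) and passed it with the replicate block (0.0334), with sex as a covariate (0.0499), by DESeq2 (0.00151) and without Bmal1WT replicate 3 (0.0106), in 4 of 17 alternatives, whose adjusted p reached 0.839. Bmal1WT replicate 3 was at 1.72 CPM and the other Bmal1WT libraries at 0.728 to 0.872 CPM.

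**Figure D5:**
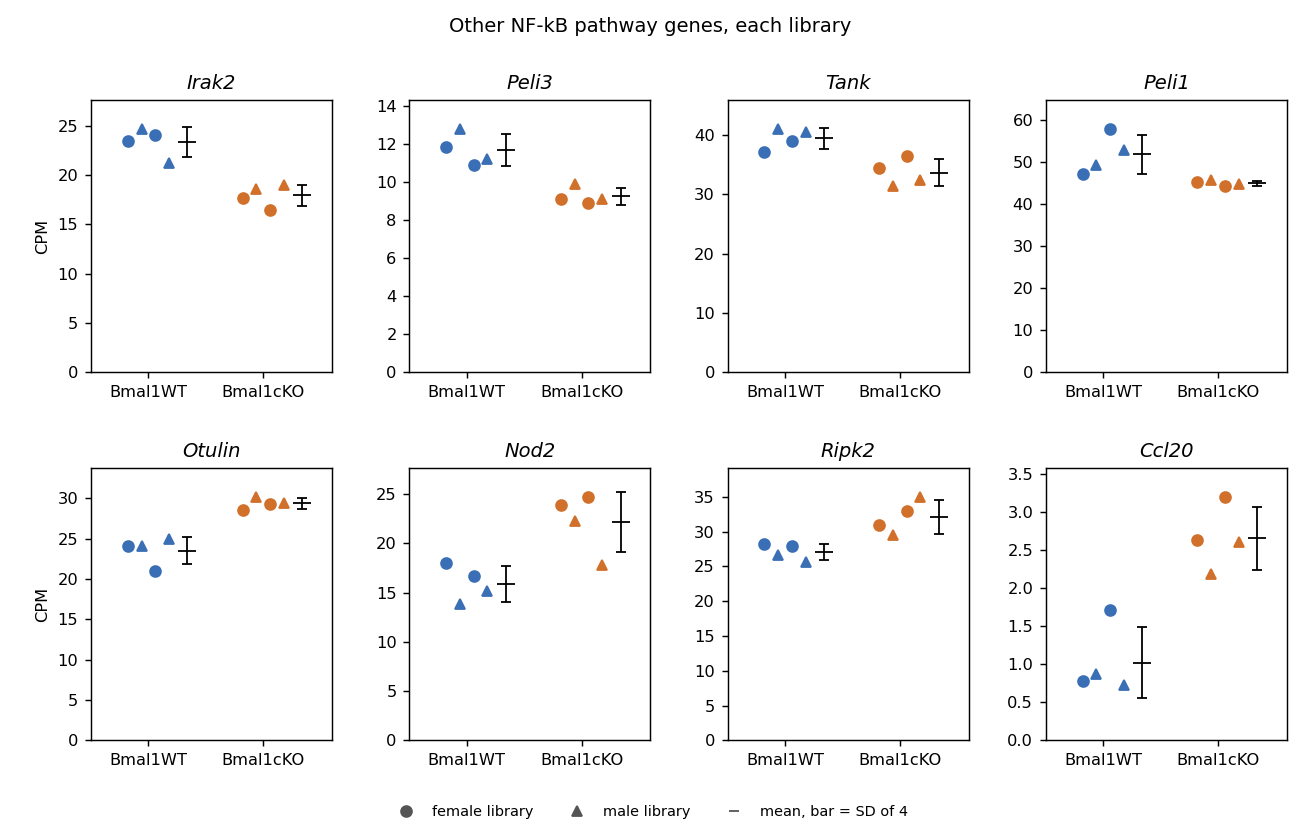
CPM of 8 further pathway genes in every library, circles for female and triangles for male libraries, with mean ± SD of 4. Irak2, Peli3, Tank and Peli1 were lower and Otulin, Ripk2 and Ccl20 higher in Bmal1cKO without overlap, while the groups overlapped for Nod2.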

How the data were processed

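Epidermal RNA of 4 Bmal1WT and 4 Bmal1cKO libraries was analysed. The authors deposited raw counts of reads for each Ensembl gene. Stranded TruSeq libraries were prepared from polyA RNA and read on a NextSeq2000, per the labels' protocols. The submitters' processing notes name Trim Galore, STAR 2.7.10a, featureCounts and the build mm10 (GRCm38). The annotation release, strand setting and handling of multi-mapping reads were not given in the sources used here. GENCODE M21 named 33974 of 34070 identifiers.

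The test was that of edgeR 4.0.16 under R 4.3.3 (filterByExpr with a minimum count of 10 and total of 15, TMM, quasi-likelihood F-test, two-sided, genotype as the only term), with Benjamini-Hochberg adjustment over 19646 genes and a threshold of 0.05. CPM use TMM-scaled library sizes. The script was tested on simulated data. Alternatives were DESeq2 1.42.0, limma-voom (limma 3.58.1), other scaling and filters, sex as a covariate, each sex alone, the replicate number as a block, and leaving out each library. Same-numbered libraries deviated together from their group means (r = 0.327, 0.483, 0.388 and 0.365, all over 0.1). By this rule the numbers were taken to pair the samples. Libraries of 1 sex with different numbers gave 0.146, 0.166, 0.345 and 0.161, also all over 0.1. Both libraries of a number have the same sex, so the rule cannot tell pairing from shared sex. No 2 libraries of a group agreed within sampling noise (chi-square per degree of freedom 13.15 to 49.28). Nothing in the labels says that the libraries came from separate animals. Each group held female and male libraries, so at least 2 animals, but libraries of 1 sex may share an animal. The p-values cover only the spread among these 8 libraries, which may be partly technical.

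The members and gene lists were chosen with earlier results of these data known. Their shares beside those of all genes are therefore description and no test of the pathway. All 40 members are named with a level; fold changes and p-values are given for a core of 8 genes and for genes with an unadjusted p under 0.05. The 95% intervals of fold changes come from the edgeR fit, and floors of 3 counts cover counting error only.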

Additional observations from a re-analysis of the deposited data

Results flagged for a closer look

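Of 106 sets of 4 libraries examined for one library far from the others, 6 stood out, and chance gives about 1 in 20. The number after each gene is the gap to the nearest library as a share of the range of its group, and it lay above Dixon's 95% critical value for 4 libraries. Rela in Bmal1cKO (0.846) had replicate 4 at 44.5 CPM and the others at 48.8 to 49.6 CPM. Nfkbib in Bmal1cKO (0.892) had replicate 4 at 18 CPM and the others at 16.6 to 16.7 CPM. Zc3h12a in Bmal1WT (0.885) had replicate 4 at 28.2 CPM and the others at 39.7 to 41.2 CPM. Tlr2 in Bmal1cKO (0.934) had replicate 2 at 1.34 CPM and the others at 2.08 to 2.13 CPM. Tlr3 in Bmal1WT (0.849) had replicate 2 at 17.4 CPM and the others at 15.8 to 16.1 CPM. Ccl20 in Bmal1WT (0.854) had replicate 3 at 1.72 CPM and the others at 0.728 to 0.872 CPM.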

How the results depend on the processing

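Over all genes, 34 were called in the main test. DESeq2 called 252, dropping the filter gave 71, sex as a covariate 119, the 4 female libraries alone 13 and the 4 male libraries alone 101, and leaving out 1 library gave 23 to 32. Of the 34, between 12 and 34 were also called under each alternative. NF-kB members called stayed at 0 except for 1, Icam1, with DESeq2 and 1 in the male libraries alone. Leaving out 1 library kept that count at 0 and moved the members with an unadjusted p under 0.05 from 4 to between 4 and 6 (1 in the female libraries alone) and the median log2 fold change of the members, 0.053, to between 0.018 and 0.106. Of the other pathway genes, DESeq2 called 5 and sex as a covariate 2, and leaving out 1 library gave 0 to 1. In the female libraries alone the log2 fold change changed sign for Nfkbia (-0.27), Rel (-0.10) and Tnfaip3 (-0.16), and leaving out 1 library gave -0.172 to 0.233, -0.062 to 0.089 and -0.007 to 0.239; the cause was not tested.

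The main test left the replicate numbers out. With the number as a block, edgeR gave 152 calls over all genes, 0 among the members and 1, Ccl20, among the other pathway genes. The adjusted p by this edgeR fit was 0.107 for Icam1, 0.161 for Relb, 0.185 for Nfkb2 and 0.247 for Traf3. Scarce members (Cd40, Csf2, Il6, Ccl5) are limited by depth.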
